A study of Mus musculus with 2 samples.

Results

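Saa3, Lcn2, Hp, Ptx3 and Serpina3n, 5 genes of secreted acute-phase proteins, were followed across the cell types and the stromal subtypes of mouse perivascular fat. They were chosen by symbol, and all 5 were among the 31053 genes measured in both libraries. The genes were put together because earlier results of these data had shown part of them higher in the old library, so their difference between the libraries is given as a description. The series held 2 single-cell RNA libraries of stromal cells from the fat around the aorta of wild-type (WT) mice, 1 from young and 1 from old mice, freed from the tissue with collagenase and labelled as primary perivascular stromal cells. The sources used here do not give the ages, the sex or the number of mice pooled in a library. Each age has 1 library, so animals could not be compared by a test. All 95% intervals are exact and cover counting error only.

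The acute-phase response is the change in secreted proteins that follows infection or tissue injury. Interleukin 1, tumour necrosis factor and interleukin 6 drive it through the transcription factors of the NF-kB, C/EBP and STAT families, in the liver for most plasma proteins and in local stromal, fat and immune cells for some of them. Saa3 encodes a serum amyloid A that mice make mainly outside the liver, and Lcn2 encodes lipocalin 2, which withholds iron from bacteria by binding their siderophores. Haptoglobin, the product of Hp, binds free haemoglobin and is made by liver and by fat cells. Ptx3 encodes the long pentraxin PTX3, a soluble pattern recognition protein that binds microbes and complement C1q. Serpina3n encodes a secreted inhibitor of serine proteases, among them cathepsin G and granzyme B.

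On GRCm38, in GENCODE vM21, Saa3 (ENSMUSG00000040026) is a reverse-strand gene of chromosome 7, 46711998 to 46715700. Lcn2 (ENSMUSG00000026822) lies on chromosome 2 from 32384633 to 32388252 and Hp (ENSMUSG00000031722) on chromosome 8 from 109575128 to 109579172, both on the reverse strand. Ptx3 (ENSMUSG00000027832) lies on chromosome 3 from 66219910 to 66225805 and Serpina3n (ENSMUSG00000021091) on chromosome 12 from 104406729 to 104414329, both on the forward strand. All 5 are protein-coding, with 3 to 6 exons in the principal transcript. Saa3 and Serpina3n have near relatives in the genome, so the last 500 bases of each principal transcript, where 3′ libraries place their reads, were compared with all other transcripts. Of 451 stretches of 50 bases in Saa3, 9 also occurred in Saa1. None of the 451 of Lcn2, Hp, Ptx3 or Serpina3n occurred in another gene. Saa1 itself had 2 and 39 UMIs (unique molecular identifiers, counted RNA molecules) in young and old mesenchymal cells.

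The sequence before the transcription start is shown for the 4 members in the RefSeq promoter table (GRCm38.p6), since C/EBP-type sites are the known entry point of several of these genes into the response. Each run is read 5′ to 3′ on the gene's strand. The Saa3 and Lcn2 runs stop just before the principal GENCODE transcript, and the Ptx3 and Serpina3n runs just before the RefSeq start, which lies 23 and 21 bases upstream of the GENCODE one. The Lcn2 run lies inside the gene interval given above, since another annotated transcript starts further upstream and has an exon that overlaps the run. Capitals mark TTNNGNAA, the core of a C/EBP-type site, searched on both strands in the 250 bases before the RefSeq start. The runs are chr7:46715701-46715926 for Saa3, chr2:32387798-32387989 for Lcn2, chr3:66219637-66219886 for Ptx3 and chr12:104406458-104406707 for Serpina3n.
Saa3: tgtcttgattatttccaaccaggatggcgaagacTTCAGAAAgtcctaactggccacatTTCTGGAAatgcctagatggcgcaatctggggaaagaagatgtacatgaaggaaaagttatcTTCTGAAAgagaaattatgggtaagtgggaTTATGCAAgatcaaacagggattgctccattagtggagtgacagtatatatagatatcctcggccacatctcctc
Lcn2: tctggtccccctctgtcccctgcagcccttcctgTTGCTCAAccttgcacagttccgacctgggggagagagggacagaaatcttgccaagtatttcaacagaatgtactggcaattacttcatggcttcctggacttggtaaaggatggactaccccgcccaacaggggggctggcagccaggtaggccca
Ptx3: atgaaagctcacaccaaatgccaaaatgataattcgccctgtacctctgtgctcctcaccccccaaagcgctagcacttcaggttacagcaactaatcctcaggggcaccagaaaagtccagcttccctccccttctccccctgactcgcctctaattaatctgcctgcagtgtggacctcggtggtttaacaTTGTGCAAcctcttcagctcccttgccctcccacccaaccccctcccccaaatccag
Serpina3n: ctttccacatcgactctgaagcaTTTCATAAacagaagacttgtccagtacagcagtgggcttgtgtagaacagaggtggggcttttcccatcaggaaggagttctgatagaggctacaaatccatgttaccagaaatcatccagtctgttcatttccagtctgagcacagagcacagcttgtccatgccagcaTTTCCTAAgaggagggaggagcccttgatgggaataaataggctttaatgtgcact

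The Saa3 window held 4 such cores, starting at positions -216, -191, -129 and -99 from the RefSeq start. Lcn2 held 1 at -216, Ptx3 1 at -57, and Serpina3n 2 at -227 and -56. Of 32851 RefSeq promoter windows of this length 36.8% held at least 1 core and 0.591% held 4 or more. The kappaB consensus (3.90% of windows), TTCNNNGAA (7.02%), TGANTCA (6.75%) and TATAAA (12.4%), also searched on both strands, were not among the letters of these 4 windows. Serpina3n, whose level was the same in both libraries in mesenchymal cells, held more cores than Lcn2 or Ptx3. These are matches of letters, and binding was not measured.

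After filtering and doublet removal 11453 young and 12207 old cells were left, with medians of 8913 and 9222 UMIs. Cells were put in a class when at least 3 of its markers had a UMI. Mesenchymal cells (collagen genes, Pdgfra, Pdgfrb) numbered 10604 young and 10436 old, with Col1a1 at 1997 and 1665 CPM and Pdgfra at 103 and 178 CPM, as the label of stromal cells implies. Mesothelial cells (Upk3b, Upk1b, Lrrn4, Gpm6a), the covering layer of serous surfaces, numbered 397 and 87, and Upk1b stood at 262 and 259 CPM there against 1.44 and 0.513 CPM in mesenchymal cells. Blood endothelial cells numbered 33 and 1132, Schwann cells 80 and 83, adipocytes 8 and 108, and macrophages 1 and 91. No cell passed the neutrophil, T, NK and innate lymphoid or hepatocyte gate in either library. The 2 libraries shared 275 barcode sequences. A difference between the libraries may come from age or from any other difference between these 2 preparations, and these cannot be told apart.

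In mesenchymal cells 4 of the 5 members had an old level of 2 times the young one or more, and 1 was level. Levels are in CPM, a gene's UMIs relative to all UMIs of its class on the same scale in every class. Saa3 was at 29.2 CPM in young cells against 1212 CPM in old cells, a 41.5-fold difference (log2 5.37 with limits of 5.32 and 5.43). Lcn2 stood at 1.48 and 126 CPM, 85.2-fold higher (log2 6.41, 6.19 to 6.65), with a young level from 157 UMIs that could not be told from background. Without the 1% of cells with the most of the gene in each library, the log2 ratio was 8.93 for Lcn2, with 22 young UMIs left, and 6.07 for Saa3. Since 1.21% of young cells held an Lcn2 UMI, this took out most of them, and the Lcn2 value is not read. Hp stood at 47.5 and 385 CPM, 8.11-fold higher (log2 3.02, 2.98 to 3.06). Ptx3, abundant in the young library already, stood at 473 and 1076 CPM, 2.27-fold higher (log2 1.18, 1.17 to 1.20). Serpina3n stood at 42.0 and 41.9 CPM (log2 -0.003, -0.06 to 0.06). Over the 15193 genes with at least 20 UMIs, 9.73% were at least 2-fold higher and 6.58% at least 2-fold lower in the old library, with a median log2(old/young) of 0.13. Since the members were chosen on this contrast, nothing is read from their count. With size factors that bring the median of all genes to 0.02, Serpina3n was at -0.11 (-0.17 to -0.05) and Ptx3 at 1.07. Clusters of the mesenchymal gate with the mesothelial markers Wt1 or Lrrn4 among their leading genes held 763 young and 35 old cells. Without them, an alternative chosen after seeing the data, Saa3 stood at 17.2 CPM in young and 1167 CPM in old cells (log2 6.08), and the log2(old/young) of Lcn2, Hp, Ptx3 and Serpina3n was 6.58, 3.05, 1.27 and -0.03.

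**Figure D1:**
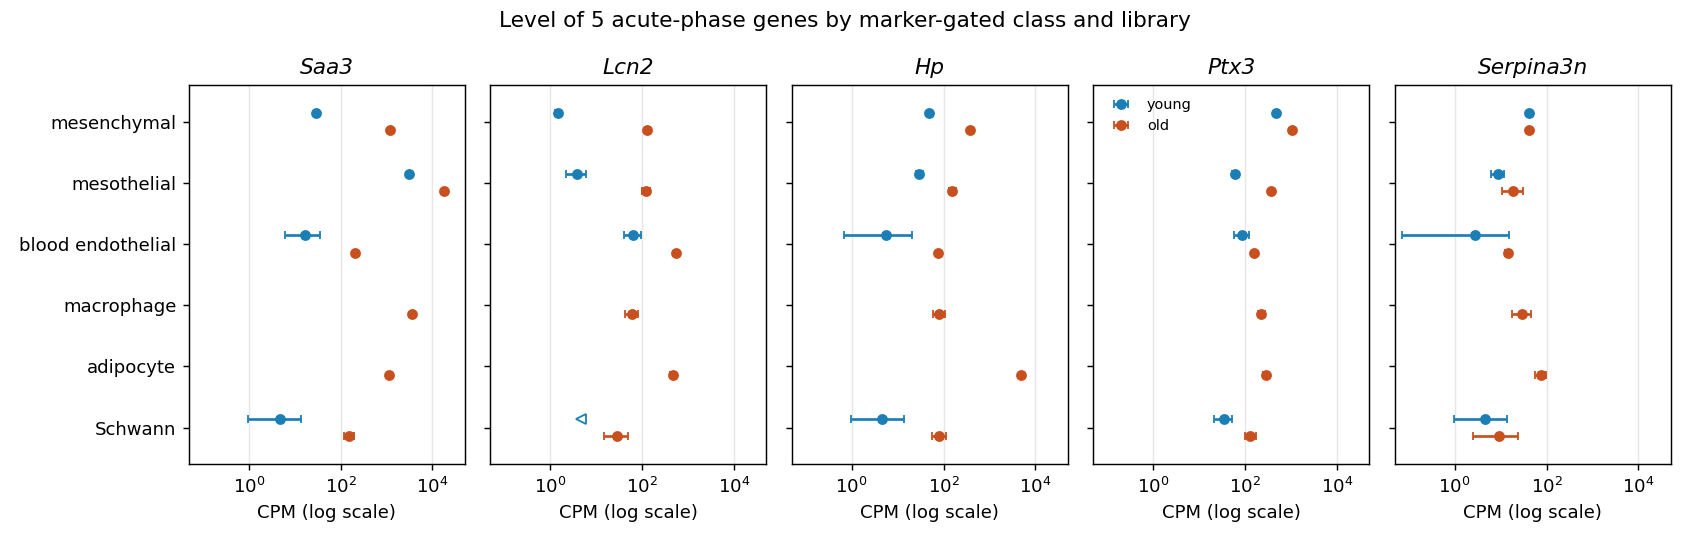
Level of each gene in CPM (log axis) in the classes with at least 30 cells, with young in blue and old in orange; bars are exact 95% Poisson intervals and an open triangle marks 3 UMIs where none was counted. The old mesenchymal point lies far to the right of the young one for Saa3 (1212 against 29.2 CPM) and Lcn2, and on top of it for Serpina3n; Saa3 is highest in mesothelial cells in both libraries, Lcn2 in old blood endothelial cells and Hp in old adipocytes.

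The higher old levels came with more cells in which a transcript was seen. After each cell had been thinned to 1000 UMIs, Saa3 was found in 2.12% of young (1.85 to 2.41) and 37.5% of old mesenchymal cells (36.5 to 38.4), and without thinning in 14.1% and 90.4%. The shares of Lcn2 were 0.18% and 10.5% after thinning, and 1.21% and 42.2% without it. Hp was found in 5.16% and 24.1% (unthinned 21.4% and 72.8%), Ptx3 in 29.2% and 50.3% (71.2% and 93.1%), and Serpina3n in 4.05% and 4.43% (19.9% and 22.1%). Thinning left out 24 young and 18 old mesenchymal cells with fewer UMIs. Schwann cells, the glia of peripheral nerves, are not a known main source of these proteins, and their shares are given as the background of the same libraries. Among 80 young Schwann cells Saa3 was found in 0% (0 to 4.51) after thinning and 3.75% without, and among 83 old ones in 7.23% (2.70 to 15.1) and 44.6%. For Lcn2 the Schwann shares were 0% and 2.41% after thinning, for Hp 1.25% and 4.82%, for Ptx3 3.75% and 7.23%, and for Serpina3n 0% and 1.20%. The old mesenchymal shares of Saa3, Lcn2, Hp and Ptx3 lay above the whole Schwann intervals, and that of Serpina3n lay inside it (0.03 to 6.53). In the young library only Ptx3 lay above the Schwann interval by the thinned share (0.78 to 10.6), while the shares of the other 4 lay inside theirs. By CPM, which uses all UMIs, young mesenchymal Saa3 (29.2 against 4.69, 0.97 to 13.7, in Schwann cells), Hp, Ptx3 and Serpina3n lay above the Schwann intervals, while Lcn2 at 1.48 CPM was under the 4.69 CPM that a Schwann count of 0 allows (3 UMIs), so young mesenchymal Lcn2 could not be told from background at this depth. Median depths were 7405 and 5033 UMIs in young and old Schwann cells, against 9044 and 9326 in mesenchymal cells.

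**Figure D2:**
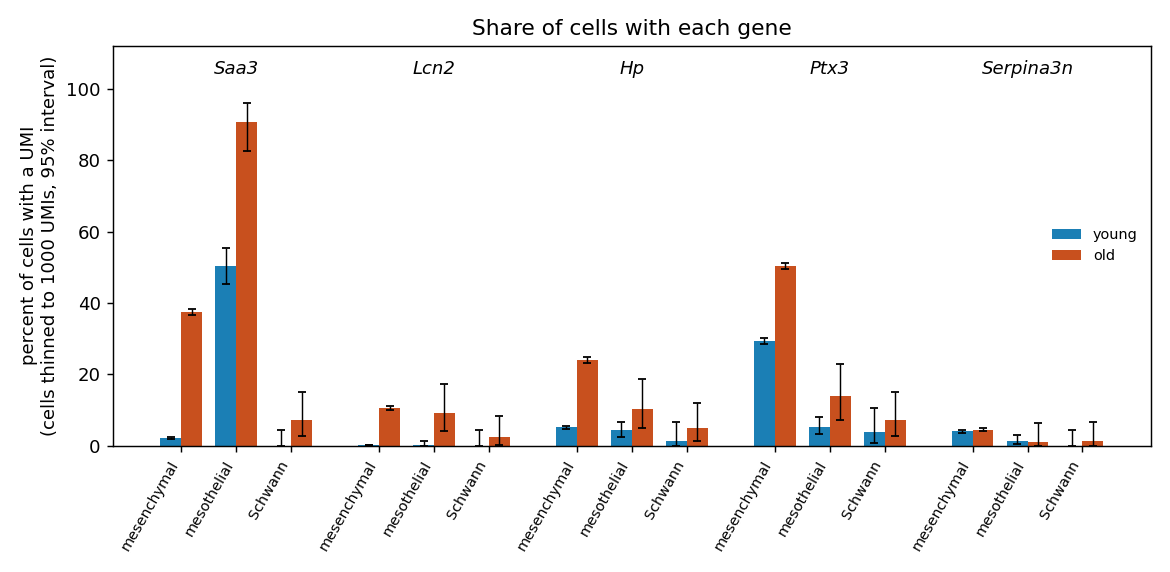
Percent of cells with a UMI of each gene after thinning to 1000 UMIs, in mesenchymal, mesothelial and Schwann cells of the young (blue) and old (orange) library; bars carry exact 95% binomial intervals. Saa3 reaches 50.4% of young and 90.8% of old mesothelial cells, and in mesenchymal cells its share goes from 2.12% to 37.5%; the Serpina3n bars are level.

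Within the young library Saa3 was concentrated in a small number of cells. The 1% of mesenchymal cells with the most Saa3 held 51.6% of its UMIs, 85.9% of the cells had none, and the highest cell held 300. Among old mesenchymal cells the top 1% held 21.9%, 9.55% of cells had none, and the median cell held 3 UMIs. Young Lcn2 had 85.99% of its 157 UMIs in the top 1% of cells and none in 98.8% of cells, against 19.6% and 57.8% in the old library. With a UMI in 1.21% of young cells, most Lcn2 UMIs fall in the top 1% however they are spread. No difference in concentration is therefore read for Lcn2. For Hp the top 1% held 25.1% of young and 20.2% of old UMIs. Ptx3 was spread more evenly, with 9.92% of its UMIs in the top 1% of young and 9.13% in that of old cells, and a median of 2 and 6 UMIs per cell. Serpina3n had 24.0% of its UMIs in the top 1% of cells in both libraries.

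Mesothelial cells were the main source of Saa3 in the young library. They were 3.47% of young cells and held 81.1% of the 16793 Saa3 UMIs, while mesenchymal cells held 18.4%. Saa3 stood at 3066 CPM in young mesothelial cells (3015 to 3118), 105-fold above the mesenchymal level (log2 6.71, 6.66 to 6.77), in a comparison where 11.9% of genes were at least 2-fold higher and 9.63% at least 2-fold lower in mesothelial cells. Lcn2 was at 3.83 against 1.48 CPM, from 17 mesothelial UMIs, and both levels were under the 4.69 CPM that the Schwann count of 0 allows, so no difference is read. The other 3 members were lower in young mesothelial than in mesenchymal cells. Ptx3 stood at 59.9 against 473 CPM (7.90-fold lower, log2 -2.98), Serpina3n at 8.78 against 42.0 CPM (4.78-fold lower, log2 -2.26), and Hp at 29.5 against 47.5 CPM (log2 -0.69, -0.95 to -0.44). With no doublets removed, the Ptx3 ratio was log2 -2.16.

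Saa3, Hp and Ptx3 stood at least 2-fold higher in old than in young mesothelial cells. The ratios of Lcn2 and Serpina3n were also above 2-fold, but over young levels not told from background. Saa3 reached 17637 CPM in 87 old cells, 5.75-fold above the young cells (log2 2.52, 2.49 to 2.56), and every one of these cells held a Saa3 UMI, with a median of 120 against 7 in the young cells. Lcn2 stood at 123 CPM (32.1-fold, log2 limits 4.26 and 5.84, over a young level not told from background), Hp at 155 CPM (2.39, 2.03 to 2.76) and Ptx3 at 367 CPM (2.62, 2.38 to 2.86). Serpina3n stood at 19.1 CPM from 16 UMIs (1.12, 0.18 to 1.99). Its young level of 8.78 CPM lay inside the young Schwann interval (0.97 to 13.7), so no difference is read. After thinning, Lcn2 was found in 9.20% of old mesothelial cells (4.05 to 17.3), Hp in 10.3% (4.84 to 18.7), Ptx3 in 13.8% (7.34 to 22.9) and Serpina3n in 1.15%, and these intervals overlap those of old Schwann cells. By CPM, Lcn2 (100.2 to 149 against 14.5 to 49.2 in old Schwann cells), Hp (129 to 184 against 55.2 to 111) and Ptx3 (327 to 411 against 99.2 to 171) lay above the Schwann intervals, and Serpina3n (10.9 to 31.0 against 2.56 to 24.0) overlapped. Saa3 lay above by both measures. Its shares were 50.4% of young and 90.8% of old mesothelial cells, and 72.5% and 100% without thinning, at median depths of 9624 and 8567 UMIs. In this comparison 5.96% of 9884 genes were at least 2-fold higher and 6.52% at least 2-fold lower in the old cells. The old mesothelial level of Saa3 was 14.6-fold above the old mesenchymal level, against 105-fold in the young library. Hp, Ptx3 and Serpina3n were at least 2-fold lower in old mesothelial than in old mesenchymal cells (log2 -1.31, -1.55 and -1.13), in a comparison where 22.9% of genes were that much higher and 9.39% that much lower, and Lcn2 was level (log2 -0.04, -0.34 to 0.24). In the old library mesothelial cells held 9.62% of 153746 Saa3 UMIs and mesenchymal cells 86.1%.

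Saa3 followed the number of mesothelial markers in a cell. In young mesenchymal and mesothelial cells together it stood at 17.8 CPM where no such marker had a UMI, 41.9 CPM with 1 marker, 532 CPM with 2 (113 cells), 2537 CPM with 3 (68 cells) and 3159 CPM with 4 or more. The old cells ran from 1194 CPM with none and 1156 CPM with 1 to 3492 CPM with 2 (83 cells), 15656 CPM with 3 and 18578 CPM with 4 or more. The difference between the libraries was thus also present in mesenchymal cells without any mesothelial marker (17.8 against 1194 CPM). Ptx3 ran the other way past 1 marker, from 716 CPM with 1 to 50.3 CPM with 4 or more in the young library and from 960 to 266 CPM in the old. The gate was set at 3 markers, which 68 young and 29 old cells just reached and 115 and 94 cells of any class missed by 1. Without the mesenchymal cells that had 2 or more markers of any other class, an alternative chosen after seeing the data, Saa3 in mesenchymal cells stood at 22.7 and 1227 CPM. With a gate at 4 markers its young mesenchymal level was 45.2 CPM, and with classes taken from clusters of both libraries it was 19.1 CPM, so its log2(old/young) lay between 4.77 and 6.08 over these choices.

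**Figure D3:**
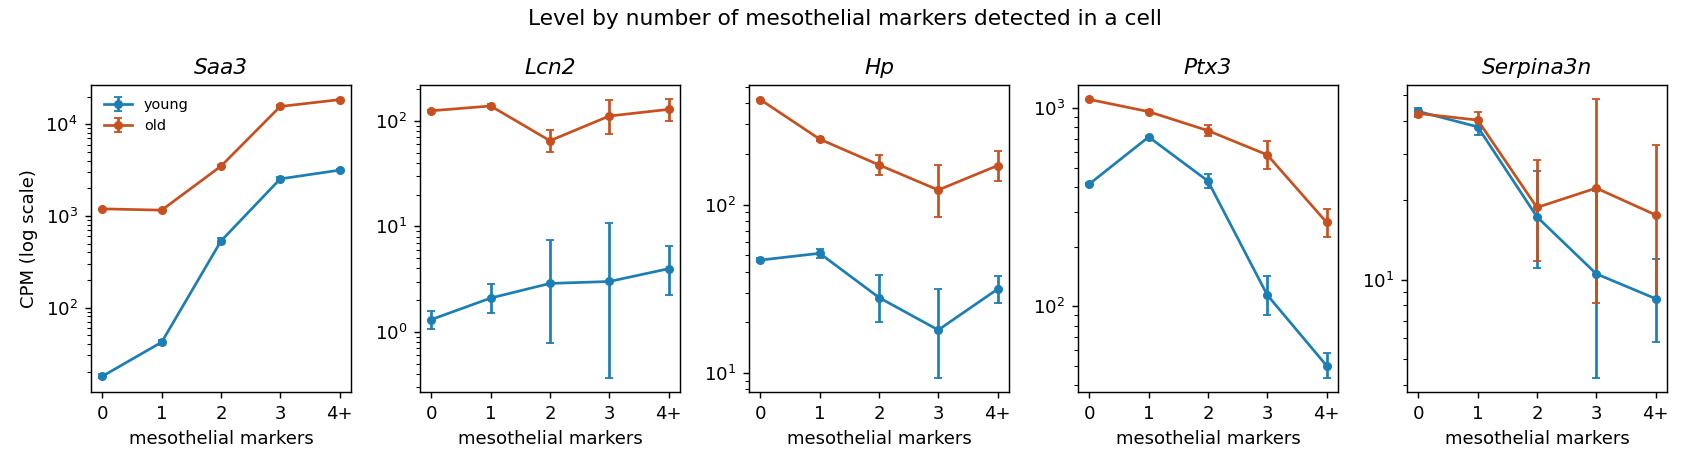
Level in CPM (log axes, a different range in each panel) against the number of mesothelial markers with a UMI in a cell, for mesenchymal and mesothelial cells of the young (blue) and old (orange) library, with exact 95% Poisson intervals. Saa3 is at 17.8 CPM without a marker and 3159 CPM with 4 or more in the young library, and at 1194 and 18578 CPM in the old, while Ptx3 is lower with each marker past the first.

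Lcn2 had a second site in the old library, the blood endothelium. Its level in 1132 old blood endothelial cells was 559 CPM (547 to 572), 4.42-fold above old mesenchymal cells (log2 2.15, 2.10 to 2.19), in a comparison where 9.14% of genes were at least 2-fold higher in endothelial cells. These cells were 9.27% of old cells and held 33.1% of the 22002 Lcn2 UMIs of the library. After thinning Lcn2 was found in 33.1% of old endothelial cells (30.3 to 35.9), against 10.5% of mesenchymal and 2.41% of Schwann cells. In the young library 33 endothelial cells held 23 Lcn2 UMIs (63.9 CPM, 40.5 to 95.9), of which 10 were in 1 cell, against 1.48 CPM in mesenchymal cells. Old endothelial cells had at least 2-fold more Saa3 (log2 3.64, 2.52 to 5.09) and Lcn2 (3.13, 2.54 to 3.79) than young ones. The young Saa3 interval (6.12 to 36.3 CPM) overlapped that of young Schwann cells (0.97 to 13.7). Hp was at 3.78 (1.92 to 6.83). Its levels lay inside the Schwann intervals in the young (5.56 CPM against 0.97 to 13.7) and the old library (76.4 against 55.2 to 111). No difference is therefore read for Hp. The young counts behind the Saa3, Lcn2 and Hp ratios were 6, 23 and 2 UMIs. Serpina3n was at 2.41 (-0.08 to 7.72) from 1 young UMI, so no difference is read. Among all genes 7.81% were at least 2-fold higher and 13.4% at least 2-fold lower in the old cells. Ptx3 differed by log2 0.83 (0.32 to 1.39). The other 4 members were lower in old endothelial than in old mesenchymal cells, where 18.6% of genes were at least 2-fold lower. Saa3 stood at 208 CPM there, Hp at 76.4, Ptx3 at 153 and Serpina3n at 14.8 CPM, 2.83-fold to 7.01-fold below the mesenchymal levels. Saa3 lay above the old Schwann interval (116 to 192). Ptx3 (99.2 to 171) and Serpina3n (2.56 to 24.0) lay inside theirs, as Hp did, so these levels could not be told from background.

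Hp was highest in adipocytes, which are known to make haptoglobin. In 108 old adipocytes it stood at 4906 CPM (4747 to 5068), 12.7-fold above old mesenchymal cells (log2 3.67), with a UMI in 80.6% of cells after thinning and 99.1% without. In that comparison 27.8% of genes were at least 2-fold higher and 12.7% at least 2-fold lower in adipocytes. The 8 young adipocytes held 109 Hp UMIs (1034 CPM), all 8 with at least 1. Lcn2 stood at 463 CPM in old adipocytes, 3.66-fold above mesenchymal cells, and Serpina3n at 76.0 CPM (1.81-fold, log2 0.86, 0.45 to 1.24). Saa3 at 1158 CPM was level with mesenchymal cells (log2 -0.07, -0.17 to 0.03), and Ptx3 at 289 CPM was 3.72-fold lower.

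In old macrophages Saa3 made up 2283 UMIs, against 145 for Ptx3, the next of the 5 members. Among these 91 cells Saa3 stood at 3571 CPM (3426 to 3721), 2.95-fold above old mesenchymal cells, in a comparison where 28.4% of genes were at least 2-fold higher and 20.1% at least 2-fold lower, and it was found in 68.1% of cells after thinning. Lcn2 stood at 59.4 CPM, Hp at 79.8 and Ptx3 at 227 CPM, 2.13-fold to 4.83-fold below mesenchymal cells. Serpina3n stood at 29.7 CPM (log2 -0.50, -1.23 to 0.15). Beside old Schwann cells, macrophage Hp lay inside the interval (55.2 to 111 CPM). Lcn2 (42.1 to 81.6 against 14.5 to 49.2) and Serpina3n (17.9 to 46.4 against 2.56 to 24.0) overlapped theirs. These 3 levels could thus not be told from background, while Ptx3 (191 to 267 against 99.2 to 171) and Saa3 lay above. The young library held 1 macrophage, with no UMI of any member.

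Old Schwann cells give a gauge of how much of these transcripts a class that is not a known source held. They had 150 CPM of Saa3, 28.2 of Lcn2, 79.8 of Hp, 131 of Ptx3 and 9.38 of Serpina3n, 4.46-fold to 8.19-fold below the old mesenchymal levels, in a comparison where 9.9% of genes were at least 2-fold lower and 33% at least 2-fold higher in Schwann cells. Their young values were 4.69 CPM for Saa3, Hp and Serpina3n (3 UMIs each), 34.4 CPM for Ptx3 and 0 UMIs for Lcn2, where 3 UMIs would be 4.69 CPM. Lcn2 was thus at least 6.01-fold higher in old Schwann cells, taking 3 UMIs over the young class as the floor, and the log2 ratio of Saa3 lay between 3.39 and 7.32. Among 5678 genes 7.45% were at least 2-fold higher and 4.6% at least 2-fold lower in old Schwann cells. Of all Schwann UMIs of the 5 members in the old library, 37.6% were Saa3, 7.06% Lcn2, 32.9% Ptx3, 2.35% Serpina3n and the rest Hp. Mesenchymal cells of the same library had 42.7% Saa3, 4.45% Lcn2, 37.9% Ptx3, 1.47% Serpina3n and 13.6% Hp. Blood endothelial cells had 20.6% Saa3 and 55.3% Lcn2, and mesothelial cells 96.4% Saa3. The mix in Schwann cells lay nearer to that of the mesenchymal majority than the mixes of endothelial and mesothelial cells did. How much free RNA added to the level of each class was not tested.

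**Figure D4:**
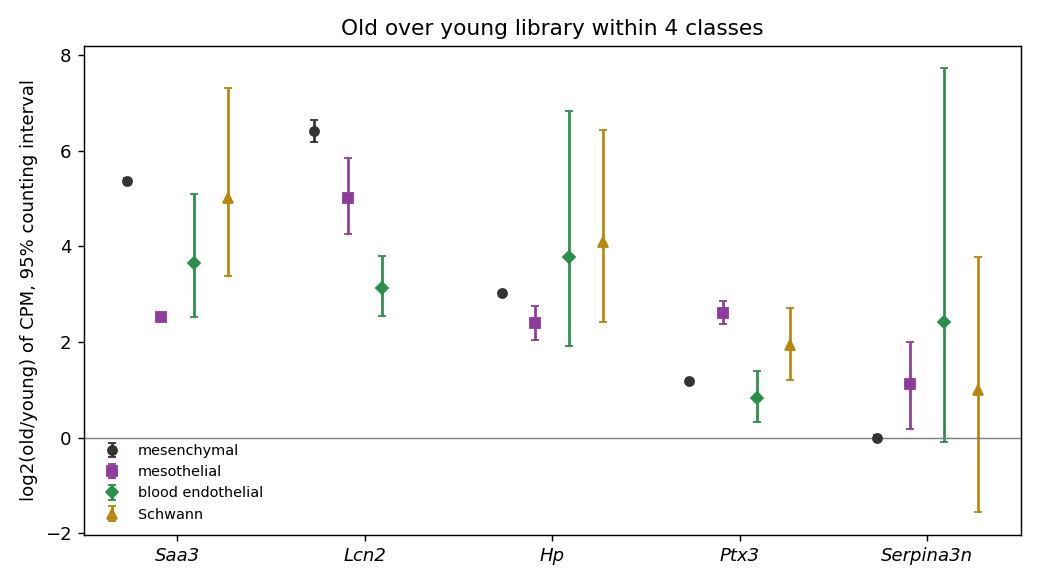
Log2(old/young) of CPM for each gene in mesenchymal, mesothelial, blood endothelial and Schwann cells, with exact conditional 95% intervals; Lcn2 in Schwann cells is left out because the young count was 0. Saa3 and Lcn2 have larger ratios in mesenchymal cells (5.37 and 6.41) than in mesothelial cells (2.52 for Saa3), and the wide bars of the endothelial and Schwann points come from young counts of 0 to 31.

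Clustering the mesenchymal cells of each library on its own, with the 5 members left out of the variable genes, showed where within that class they lay. In the young library Saa3 was low almost everywhere, between 8.82 and 45.2 CPM in 16 of the 17 clusters with at least 50 cells. The exception was cluster 0, 763 cells led by Gdpd2, Wt1, Maf and Igfbp3, at 202 CPM (191 to 213), with 44.8% of the mesenchymal Saa3 UMIs. Wt1 is also a mesothelial marker, and 24 cells of cluster 0 had 2 mesothelial markers. Those 24 held 709 of its 1386 Saa3 UMIs (3711 CPM), the 292 cells with 1 marker stood at 176 CPM, and the 447 cells with none at 47.3 CPM. With both libraries clustered together, 15 of the 763 cells fell in the mesothelial cluster. The boundary of the young Saa3 cluster depended on the random start of the clustering. Of 2 other starts, chosen after seeing the data, 1 gave a top cluster of 309 cells at 533 CPM, and in the other no cluster with at least 50 cells exceeded 48.4 CPM. Young Lcn2 was at 4.64 CPM in cluster 11 (3.33 to 6.29) and 3.79 CPM in cluster 0 (2.48 to 5.55), whose intervals overlap, and the start that gave the 309 cells put its highest level there, at 9.11 CPM.

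The other members had other young sites. Hp was highest in cluster 14 (248 CPM, 56 cells led by Cpxm1, Ecm1 and Ctsl) and cluster 5 (235 CPM, 562 cells led by Il1rn, Igfbp4 and Sned1, with Cebpa and Cxcl12). Clusters 2 and 5 held 39.3% and 20.4% of young Hp UMIs. Ptx3 was highest in cluster 14 (3194 CPM) and cluster 2 (1194 CPM, 1509 cells led by Lpl), and lowest in cluster 17, led by Ngfr and Cadm1 (41.2 CPM), and cluster 16, the contractile cells with Myh11 (54.5 CPM). Serpina3n was highest in clusters 14 (167 CPM) and 11 (163 CPM), the latter 750 cells led by Tbx20, Ptn and Gata4, which held 32.5% of its UMIs in 7.07% of the cells. Cluster 14 rested on 56 cells with a median of 3071 UMIs, so its intervals are wide.

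Among the old clusters, Saa3, Hp and Ptx3 shared their top site. Cluster 3, 1405 cells led by Stc1, Rgcc, Il1rn, Aldh1a2 and Fabp4 and meeting 3 adipogenic markers (Lpl, Fabp4, Cebpa), had 3534 CPM of Saa3, 1559 of Hp and 2345 of Ptx3. It was 13.5% of old mesenchymal cells and held 26.2% of their Saa3, 36.4% of their Hp and 19.6% of their Ptx3 UMIs. Cluster 8, 968 cells led by Ctsl, Cpxm1 and Serping1, came next for these 3 genes with 2700, 853 and 1654 CPM. Saa3 in cluster 3 was not tied to mesothelial markers, since the 1356 cells with none stood at 3542 CPM. Lcn2 was about level over clusters 2 (267 CPM, led by Gda, Il33 and Pi16), 3 (264 CPM) and 8 (261 CPM), whose counting intervals overlap, with 223 CPM in cluster 5. Serpina3n was highest in cluster 5, 729 cells led by Tbx20, Mmp3 and Fndc1, at 169 CPM (160 to 179), with 73.7 CPM in cluster 2 next. From the 2 other starts of the clustering the top old clusters had 4213 and 3596 CPM of Saa3, 1789 and 1605 of Hp, 2669 and 2368 of Ptx3, and 184 and 161 of Serpina3n. A group of 35 cells, cluster 14, met 4 mesothelial markers and had 25027 CPM of Saa3, 3.89% of the mesenchymal Saa3 UMIs.

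Every one of the 13 old clusters with at least 50 cells stood above the young mesenchymal level for Saa3 (177 to 3534 CPM against 29.2) and for Lcn2 (25.3 to 267 CPM against 1.48). Old Schwann cells, the background of the same library, had 150 CPM of Saa3 (116 to 192) and 28.2 of Lcn2 (14.5 to 49.2). Cluster 11 lay inside both Schwann intervals. Clusters 1, 6 and 7 (33.2, 47.5 and 44.4 CPM) lay inside that of Lcn2, so these levels could not be told from background. The lowest old values of all 5 members were in cluster 11, 53 cells led by Ngfr, Cadm4 and Col18a1. The clusters led by contractile genes (6 and 10) and cell cycle genes (7 and 9) had 324 to 524 CPM of Saa3 and 44.4 to 58.9 CPM of Lcn2. The highest old cluster lay above the lowest by 10.6-fold for Lcn2, 21.5-fold for Hp, 21.2-fold for Ptx3 and 17.9-fold for Serpina3n. Cluster 12 (124 cells) had a median of 2224 UMIs against 9326 in its class, so it is not described by type.

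**Figure D5:**
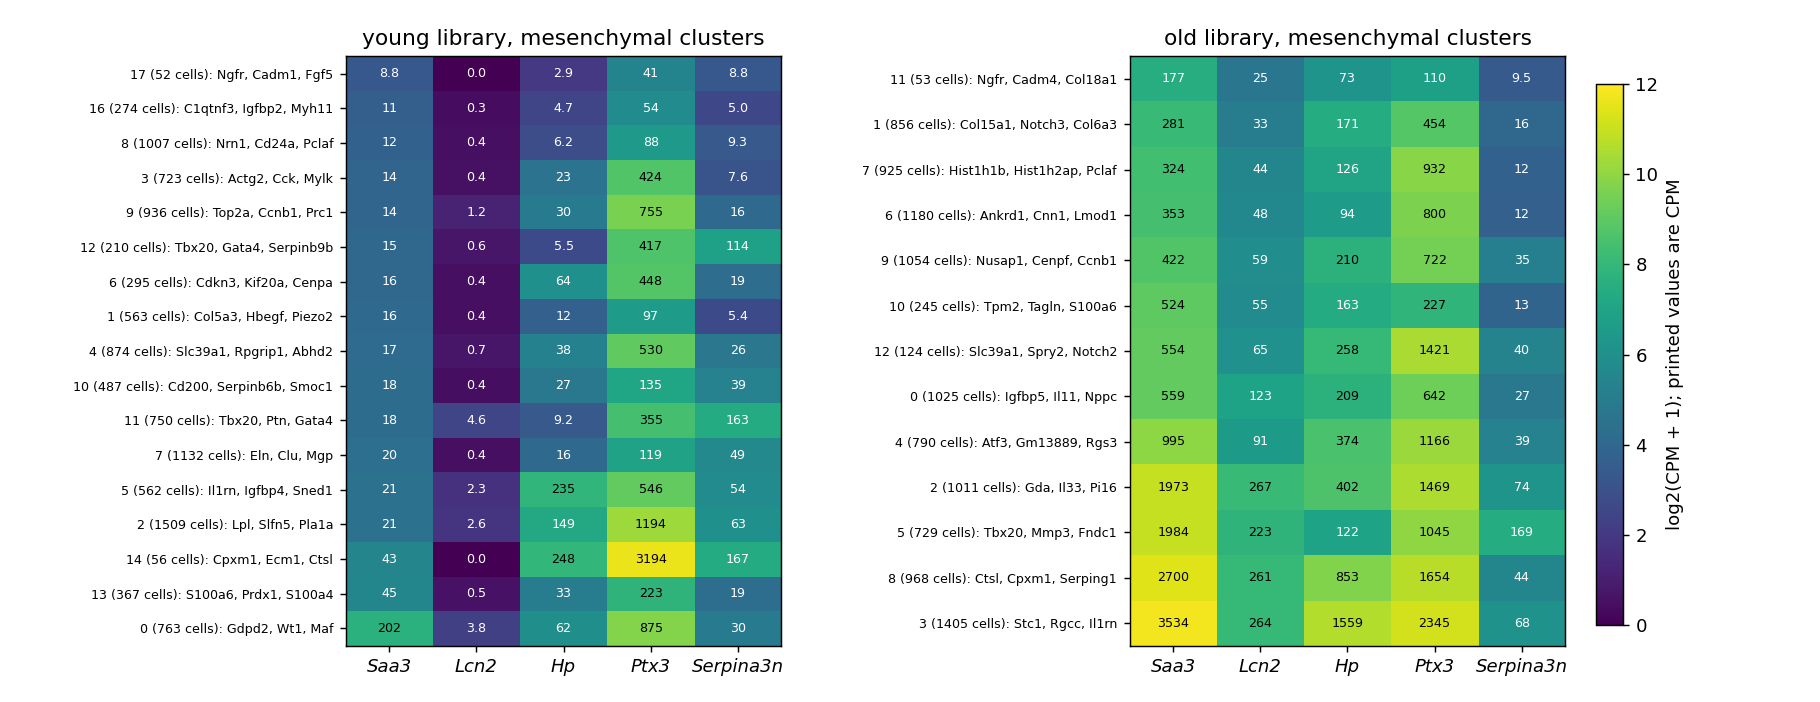
CPM of each gene in the mesenchymal clusters with at least 50 cells of the young (left) and old (right) library, ordered by Saa3, with 3 leading genes and the number of cells beside each row; the colour shows log2(CPM + 1). Young Saa3 stands out in cluster 0 (202 CPM) alone, whereas in the old library clusters 3 and 8 lead for Saa3, Hp and Ptx3 and cluster 5, with Tbx20, leads for Serpina3n.

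Gates on subtype markers allow the same kind of cell to be compared with the rest of its own library. Contractile cells (at least 4 of 7 markers such as Acta2, Cnn1 and Myh11) had less of all 5 members than the other mesenchymal cells of their library. Saa3 stood at 14.5 CPM in 1640 young contractile cells against 32.8 CPM in the rest, and at 344 CPM in 922 old ones against 1340 CPM. Cycling cells were also lower for all 5, with Saa3 at 13.9 against 34.9 CPM in young and 377 against 1529 CPM in old cells, and old Lcn2 at 52.6 against 155 CPM. Young Lcn2 lay under the 4.69 CPM of the Schwann floor in both gates, so its young differences are not read. Contractile and cycling cells had more UMIs per cell (medians of 11574 to 13506) than the rest (8311 to 9024), and the part of depth was not tested. Cells rich in matrix markers (Cthrc1, Postn and others) had 2.21-fold and 2.20-fold less Saa3 in the young and old library.

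Adipogenic cells (Pparg, Lpl, Fabp4 and others) had more Hp in both libraries, 84.5 against 39.9 CPM in 1528 young cells and 629 against 317 CPM in 1841 old cells, a ratio of 2.12-fold and 1.98-fold. Their Saa3 was level with the rest in the young library (29.5 and 29.2 CPM) and slightly lower in the old (1137 and 1233 CPM). Old cluster 3, which met 3 adipogenic markers, had 3534 CPM of Saa3, so gate and cluster gave different answers. Median depth was 11515 UMIs in the old cells of the gate, 9035 in the rest and 6429 in cluster 3. The part of depth was not tested. Cells with the cardiac-type factors Tbx20, Tcf21, Tbx18, Gata4 and Gata6 had more Serpina3n, 115 against 35.5 CPM in 566 young and 130 against 39.1 CPM in 232 old cells, 3.24-fold and 3.34-fold. In the same cells Hp was lower, 9.67 against 50.9 CPM and 116 against 394 CPM. The 1561 old cells of the adventitial progenitor gate (Pi16, Dpp4, Cd55 and others) had 683 CPM of Saa3 against 1345 CPM in the rest, with Lcn2 at 116 against 129 CPM, and 69 young cells passed that gate.

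Inside each of 5 subtypes Saa3 was higher in the old library by far more than Serpina3n differed in either direction. Saa3 went from 14.5 to 344 CPM in contractile, 13.9 to 377 CPM in cycling, 29.5 to 1137 CPM in adipogenic, 16.7 to 704 CPM in matrix-rich and 17.0 to 788 CPM in cardiac-factor cells. Serpina3n stood at 16.6 and 16.5 CPM in contractile, 24.7 and 24.4 CPM in cycling, 46.1 and 31.7 CPM in adipogenic, 33.9 and 29.0 CPM in matrix-rich and 115 and 130 CPM in cardiac-factor cells. The gates are ranges on a count of markers, and between 428 and 2923 cells per library and gate named here lay 1 marker below the limit. In both libraries the cells of each of these gates had a higher median of UMIs than the rest. The part of depth in the differences between a gate and the rest was not tested.

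In the young library 349 mesenchymal cells (3.29%) passed a gate of at least 4 of 6 inflammatory genes (Cxcl1, Cxcl5, Ccl2, Ccl7, Il6, Cxcl2), and in the old library 98.2% did. The young cells of this gate had no more Saa3 than the rest (25.2 against 29.4 CPM, log2 -0.22, -0.51 to 0.05). Their Lcn2 was at 4.28 against 1.36 CPM, from 19 UMIs and both under the 4.69 CPM set by Schwann cells, Ptx3 was 1.76-fold higher (808 against 458 CPM) and Serpina3n 1.67-fold higher (68.2 against 40.8 CPM). Hp was level (50.4 and 47.4 CPM). Old cells below the gate numbered 184 with a median of 4486 UMIs.

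The members were more frequent in old cells that also held Saa3. In old mesenchymal cells thinned to 1000 UMIs, Lcn2 was found in 17.4% of the 3904 cells with Saa3 (16.2 to 18.6) and 6.39% of the 6514 without. Hp was found in 33.7% against 18.3%, Ptx3 in 59.5% against 44.9%, and Serpina3n in 7.10% against 2.84% of the same cells. In young mesenchymal cells with and without Saa3, Ptx3 was found in 28.6% (22.8 to 35.0) and 29.3%, Hp in 8.48% (5.18 to 12.9) and 5.09%, Serpina3n in 6.25% (3.46 to 10.3) and 4.01%, and Lcn2 in 1.34% (0.28 to 3.86) and 0.15%, with 224 cells holding Saa3. Hp went with Ptx3 in the young cells too, in 8.24% of those with Ptx3 and 3.89% of those without. Cells are not replicates, and these shares describe 1 library each.

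Across the 13 old clusters, Saa3 and Lcn2 were each other's closest match among 11034 genes with at least 200 UMIs (Pearson r of log2(CPM + 1) 0.97). Saa3 was next most like Apoe, C1ra, Tmem176a and Mdk (0.92 to 0.96), and Lcn2 like Mt2, Gdpd2, C3 and Selenop (0.93 to 0.95). Hp was most like Kng2, a kininogen gene (0.98), then Rarres2, Rgcc, Apoe and Phyh. Ptx3 was most like Lifr, the receptor gene of leukaemia inhibitory factor (0.96), then Aff2, Apbb1ip, Hgf and Arhgap20. Serpina3n was most like Gdpd2, Prelp, Fth1, Rspo1 and Fmo1 (0.89 to 0.90), with 0.85 for Lcn2 and 0.53 for Hp. The 13 points share a library, differ in depth and were partly drawn apart by the genes compared, so these values describe the clusters only.

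Other acute-phase proteins were then read from a list of 34. In mesenchymal cells 17 had at least 20 UMIs, of which 10 were at least 2-fold higher (9.73% of all genes were) and 2 at least 2-fold lower (6.58% of all genes) in the old library, with a median log2(old/young) of 1.62 against 0.13 for all genes, and 10 had no UMI in either library. Complement C3 stood at 17.0 and 99.3 CPM (5.83-fold), complement factor B (Cfb) at 0.236 and 3.52 CPM (14.9-fold), and Steap4, a metalloreductase gene, with 323 and 1422 UMIs (4.26-fold). Hpx, which encodes the haem carrier haemopexin, had 18 and 110 UMIs. The liver serum amyloid genes were scarce: Saa1 had 2 and 39 UMIs and Saa2 0 and 37, at least 11.9-fold higher over a floor of 3 UMIs in the class.

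Of 10 Serpina3 paralogues 4 had at least 20 UMIs and 3 were at least 2-fold higher, beside 9.73% of all genes. Serpina3f stood at 0.340 and 5.93 CPM (17.4-fold), Serpina3g at 24.96 and 59.9 CPM (2.40-fold) and Serpina3i at 0.851 and 1.90 CPM (2.24-fold), while Serpina3n was level. Serpina3c had 17 and 22 UMIs and Serpina3m 7 and 8.

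Cytokines known to drive the response were read next. All 8 with at least 20 UMIs, of 12 listed, were at least 2-fold higher (median log2 4.54), a change that 9.73% of all genes showed. In such medians a library at 0 was set to 3 UMIs. Il6 stood at 28.6 and 853 CPM (29.8-fold), Lif at 7.40 and 133 CPM (log2 4.17) and Il11 at 3.44 and 131 CPM (38.1-fold). Il1b, best known from myeloid cells, had 0 and 101 UMIs in mesenchymal cells. Of their 15 receptors 3 were at least 2-fold higher and 0 lower, with 9.73% and 6.58% among all genes, and their median was 0.003. Il1r1, the signalling receptor of interleukin 1, stood at 84.5 and 142 CPM (1.68-fold), Tnfrsf1b at 6.59 and 20.7 CPM (3.14-fold), Tlr2 at 1.01 and 9.50 CPM (9.40-fold) and Cd14 at 2.26 and 9.64 CPM (4.27-fold).

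Among the transcription factors of the response 4 of 14 were at least 2-fold higher and 0 lower (median 0.80), against 9.73% and 6.58% of all genes. These were Nfkb1 (35.4 and 117 CPM, 3.32-fold), Nfkb2 (8.72 and 30.1 CPM, 3.45-fold), Relb (15.3 and 39.5 CPM, 2.59-fold) and Nfkbiz (29.2 and 110 CPM, 3.78-fold), the last encoding IkB-zeta, a nuclear cofactor known to be needed for Lcn2. Cebpb stood at 846 and 1479 CPM (1.75-fold), Cebpd at 163 and 169 CPM (1.03-fold) and Stat3 at 116 and 156 CPM (1.34-fold). Of 11 feedback inhibitors 8 were at least 2-fold higher and 0 lower (median 1.76), against the same 9.73% and 6.58%. Tnfaip3, which encodes the ubiquitin-editing enzyme A20, stood at 1.75 and 28.2 CPM (16.1-fold), Zc3h12a with 847 and 9093 UMIs (10.4-fold), Nfkbia at 98.5 and 431 CPM (4.38-fold) and Nfkbie at 2.76 and 13.6 CPM (4.94-fold).

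Genes of receptors and partners of the members' products were mixed, with 8 of 16 at least 2-fold higher and 2 at least 2-fold lower (median 1.12), where all genes gave 9.73% and 6.58%. Slc22a17, a receptor gene of lipocalin 2, was level with 446 and 492 UMIs (log2 0.10, -0.09 to 0.28). Tnfaip6, whose product joins PTX3 in hyaluronan-rich matrix, stood at 16.7 and 105 CPM (6.28-fold). Selp, the gene of P-selectin, which PTX3 binds, had 45 and 1683 UMIs (36.2-fold). Selp is known from endothelial cells, and the endothelial markers Emcn (0.454 and 7.58 CPM) and Cdh5 (0.274 and 4.07 CPM) were also higher in the old mesenchymal class, whose part in Selp was not tested. Mmp9, whose product lipocalin 2 binds, had 9 and 159 UMIs (17.1-fold). The scavenger receptor gene Cd36 had 20 and 271 UMIs (13.1-fold).

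Markers of other cell types inside the mesenchymal class were read beside these values. The hepatocyte list summed to 2.79 CPM for young and 3.02 CPM for old cells, with 4 of its 6 markers (Alb, Ttr, Fgb, Serpina1a) at 0 in the old cells. The neutrophil list summed to 4.07 and 3.03 CPM, with S100a9 and Retnlg at 0 in both. Macrophage markers summed to 13.3 and 27.2 CPM (8 of 8 with a UMI in the old library), blood endothelial markers to 15.4 and 37.2 CPM (8 of 8), adipocyte markers to 6.07 and 10.1 CPM (7 of 8) and mesothelial markers to 24.5 and 21.9 CPM (8 of 9). Egfl7 (9.15 and 18.8 CPM) made up the largest part of the endothelial sums, while Emcn, Cdh5, Pecam1 (0.321 and 3.71 CPM) and Tie1 (0.0378 and 1.14 CPM) lay further apart between the libraries than the sums did, and Kdr and Ptprb were lower in the old class. Csf1r was 24.2 CPM of the old macrophage sum. The endothelial, macrophage and adipocyte sums were thus higher in the old class, beside the higher Lcn2, Saa3 and Hp, and their part in these levels was not tested.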

How the data were processed

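The authors deposited UMI count matrices of 1 young and 1 old library, made with Cell Ranger 3.0.1 per the file headers, against mm10 per the submitters' processing notes, from 10x Chromium v2 libraries per the labels' protocols. The sources used here give neither the annotation release nor the barcode filter. A barcode was kept with at least 500 genes and no more than 10% of UMIs from mitochondrial genes (12755 of 13104 young, 13711 of 14636 old). Since the automatic Scrublet threshold marked 0 doublets, cells with the highest scores were removed at 0.8% per 1000 cells (1302 and 1504). Total UMIs were 130398999 and 147166475.

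A cell joined a class with 3 of its markers, and the mesenchymal class only if it reached no other. These classes are rebuilt, not the authors' annotation. Counts were summed per library and class as CPM with exact Poisson intervals, ratios with exact conditional Poisson intervals and shares with Clopper-Pearson intervals, all covering counting error only. Clusters used 2000 variable genes per library without the members, 30 principal components, 15 neighbours and Leiden resolution 1 (scanpy 1.11.5, igraph 0.11.9, scipy 1.17.1, numpy 2.4.6). The interval computation was tested on simulated counts. No test compares the libraries, as each age has 1.

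The members and gene lists were chosen with earlier results of these data known. Named list genes were the 4 with the largest ratio of each list among those with at least 100 UMIs, plus Cebpb, Cebpd, Nfkbiz, Stat3, Il6, Il1r1, Slc22a17, Saa1, Saa2 and the Serpina3 paralogues, and the 5 genes most like each member; other genes named as leading a cluster were chosen by fold within it. Alternatives were another cell filter, no doublet removal, a stricter gate, cluster-based classes, other size factors, leaving out the top 1% of cells, other thinning and other minimum counts.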

Additional observations from a re-analysis of the deposited data

Results flagged for a closer look

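Barcodes that failed the cell filter (349 young and 925 old) entered no comparison, yet those of the old library held more of 3 members than the young ones did. Saa3 stood at 1007 CPM in the old against 241 CPM in the young excluded barcodes. Lcn2 stood at 252 against 5.08 CPM, and Hp at 1601 against 564 CPM. In the same barcodes Ptx3 stood at 658 against 1724 CPM and Serpina3n at 30.1 against 88.1 CPM, lower in the old library. Young mesenchymal cells had less of 4 members than the young excluded barcodes did, with Saa3 at 29.2, Hp at 47.5, Ptx3 at 473 and Serpina3n at 42.0 CPM. Their Lcn2 (1.48 CPM) lay inside the interval of the 3 UMIs in those barcodes (1.05 to 14.8 CPM). These barcodes were not assigned to a cell type, and the part of damaged cells was not tested.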

How the results depend on the processing

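Of 80 alternative values of the 10 ratios, 50 lay inside the interval of the reported value, 30 outside it and 0 turned the direction of a ratio whose interval left out 0. For log2(old/young) in mesenchymal cells, the values outside were 1.17 for Ptx3 with the looser cell filter, 5.22 for Saa3 and 1.23 for Ptx3 without doublet removal, 4.77 for Saa3 and 1.16 for Ptx3 with the stricter gate, and 5.93 for Saa3 with cluster-based classes. Median-of-ratios size factors gave 5.26 for Saa3, 2.91 for Hp, 1.07 for Ptx3 and -0.11 for Serpina3n. Without the top 1% of cells Saa3 was at 6.07, Lcn2 at 8.93 (22 young UMIs left), Hp at 3.11 and Ptx3 at 1.20. Mesenchymal cells with under 2 markers of another class gave 5.76 for Saa3, and leaving out the clusters led by mesothelial markers gave 6.08 for Saa3 and 1.27 for Ptx3, both chosen after seeing the data. For log2(mesothelial/mesenchymal) in the young library, Saa3 was at 6.63 (looser filter), 6.36 (no doublet removal), 6.13 (stricter gate), 7.46 (cluster-based classes), 6.59 (median-of-ratios), 7.52 (without the top 1%), 7.08 (under 2 other markers) and 7.48 (without those clusters). Ptx3 was at -2.16 without doublet removal, -3.25 with the stricter gate and -3.30 with cluster-based classes, and Serpina3n at -1.68 without doublet removal. Lcn2 was at 3.11 without the top 1%, from 8 mesothelial and 22 mesenchymal UMIs. The cause was not tested.

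Among all genes, those at least 2-fold higher and lower numbered 975 and 589 with at least 100 UMIs, 2846 and 2582 with at least 1 UMI, and 1282 and 1169 with median-of-ratios size factors, against 1478 and 999. The 2 libraries differ in age and in every step of preparation, which cannot be told apart. No paired analysis was possible because each age has 1 library. Young Lcn2 (157 mesenchymal UMIs) and the classes with few young cells limit the ratios that rest on them.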

Other observations

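Some cells fell outside the classes and subtypes described above. The 222 old cells that reached no class had 426 CPM of Saa3, 331 of Hp and 199 of Ptx3, and the 329 young ones 31.4, 15.3 and 94.2 CPM. The 13 old cells with striated muscle markers had 511 CPM of Saa3, with at least 1 UMI in each. A cluster of 36 old mesenchymal cells led by the interferon-response genes Ifit1, Cxcl10 and Rsad2 had 1765 CPM of Saa3, 211 of Lcn2, 604 of Hp and 1824 of Ptx3. Old mesenchymal cells passing a stress gate (Atf3, Ddit3 and others, 1250 cells) had less Saa3 than the rest (622 against 1334 CPM), as did the 721 young ones (14.1 against 30.8 CPM). Median depth was 13843.5 against 8899 UMIs in the old and 12556 against 8791 in the young library. Old cluster 4, which met 4 stress markers, had 995 CPM of Saa3. The part of depth was not tested. In 106 old cells of the pericyte gate Serpina3n stood at 91.9 against 41.3 CPM in the rest and Lcn2 at 61.0 against 127 CPM, while 9 young cells passed that gate, with 6 Serpina3n UMIs (43.7 CPM).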
